A study of Homo sapiens with 4 samples.

Results

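The 8 mature microRNAs described here mark epithelial cells and were followed through small RNA libraries of RD cells: the 5 members of the miR-200 family (miR-200a-3p, miR-200b-3p, miR-200c-3p, miR-141-3p and miR-429), miR-203a-3p, miR-203b-5p and miR-205-5p. They were chosen by name, and all 8 are among the 2656 miRNAs of the count table. RD is an established human line from an embryonal rhabdomyosarcoma, a tumour of the skeletal muscle lineage. The cells were untreated, and no genotype or allele is given for them. One library held RNA of the input lysate (INPUT). The others held RNA captured from lysate with biotinylated antisense probes: the EVEN set and the ODD set, both against exon 2 of HIPK3, the exon that forms circHIPK3, and a set against the bacterial LacZ message (LACZ), which serves as the control for capture without a cellular target. The design text states 1 biological replicate, and each group has 1 library, so no comparison below has a replicate check or a p-value. Intervals are 95% exact intervals and cover counting error only.

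A miRNA guides an Argonaute protein to messages that pair with its seed, bases 2 to 8 counted from its 5′ end. The miR-200 family is known for repressing ZEB1 and ZEB2, transcription factors that switch off E-cadherin, and the family is high in epithelia and low in most mesenchymal cells. miR-203 restrains p63 in skin and other stratified epithelia, and miR-205 is abundant in basal epithelial cells and also targets ZEB1 and ZEB2. Rhabdomyosarcoma cells instead carry the muscle miRNAs, of which miR-206 is the best known.

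The mature sequences are shown because they sort the 8 miRNAs into the groups used below. They are RefSeq sequences (GRCh38.p14), found for all 8 members, 5′ to 3′, with the seed in capitals. One pair of the family shares a seed:
hsa-miR-200a-3p: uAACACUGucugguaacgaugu
hsa-miR-141-3p: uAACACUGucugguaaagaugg
The other three share a second seed:
hsa-miR-200b-3p: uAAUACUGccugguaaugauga
hsa-miR-200c-3p: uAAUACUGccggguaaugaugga
hsa-miR-429: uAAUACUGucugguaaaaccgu
The remaining members have a seed each:
hsa-miR-203a-3p: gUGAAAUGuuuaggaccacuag
hsa-miR-203b-5p: uAGUGGUCcuaaacauuucaca
hsa-miR-205-5p: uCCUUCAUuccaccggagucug

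The family members are close in sequence. Counted from 1 at the 5′ end, miR-141-3p differs from miR-200a-3p by C17A and U22G, and miR-200c-3p differs from miR-200b-3p by U11G and A22G within the 22 positions compared. The 2 seeds of the family differ by C4U, as miR-200a-3p against miR-200b-3p shows. The sources used here do not say how reads that match several miRNAs were assigned. Reads within these pairs are therefore the least certain. miR-203a-3p and miR-203b-5p are perfectly complementary over 21 bases, because their hairpins overlap on opposite strands. The use of strand in counting is not given either, so reads of that pair cannot be told apart with certainty. By base composition miR-205-5p stood apart, with 54.5% G and C against 36.4 to 43.5% in the other 7.

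In the GENCODE annotation of GRCh38, MIR200B (chr1:1167104-1167198), MIR200A (chr1:1167863-1167952) and MIR429 (chr1:1169005-1169087) lie on the plus strand within 1984 bases, with no overlapping annotated gene. MIR200C (chr12:6963699-6963766) and MIR141 (chr12:6964097-6964191) lie within 493 bases in an intron of the long non-coding gene MIR200CHG, on the same strand. MIR203A (chr14:104117405-104117514, plus strand) and MIR203B (chr14:104117418-104117503, minus strand) overlap by 86 bases. MIR205 (chr1:209432133-209432242, plus strand) lies in an exon of MIR205HG. The 2 seed groups therefore do not follow the 2 clusters: each cluster carries both seeds.

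Depth sets the limits of what follows. The libraries held 2987858 miRNA reads in INPUT, 425395 in LACZ, 98950 in EVEN and 426450 in ODD. CPM is the count as a share of the library total, scaled alike in every library. A count of 0 was set at a floor of 3 reads, which is 1.00 CPM in INPUT, 7.05 in LACZ, 30.3 in EVEN and 7.03 in ODD. The 95% exact upper limits of a 0 are 1.23, 8.67, 37.3 and 8.65 CPM in the same order. A single read in EVEN is worth 10.1 CPM. Where a count is 0, the fold uses this floor and is marked as at the floor. Such a fold leaves out the counting error of the other count. The muscle identity of the line was visible: all 6 miRNAs of a skeletal muscle list were detected in INPUT, with a summed level of 62227 CPM against 195 CPM for the 8 epithelial miRNAs. Levels are shares of the miRNA reads of a library, so a larger share of one miRNA lowers the shares of the others.

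In the input the set consisted almost wholly of the miR-200 family. miR-141-3p stood at 65.6 CPM (interval 56.7 to 75.5; 196 reads) and miR-200a-3p at 56.2 CPM (48.0 to 65.4; 168 reads), and the intervals of these neighbours overlapped. miR-200c-3p at 30.1 CPM (24.2 to 37.0) and miR-429 at 28.8 CPM (23.0 to 35.5) formed a second level, also with overlapping intervals. miR-200b-3p followed at 12.4 CPM (8.72 to 17.1), below both. The markers of stratified epithelium were near or at 0: miR-205-5p had 4 reads (1.34 CPM), miR-203a-3p had 2 reads (0.669 CPM) and miR-203b-5p had none. The intervals of miR-205-5p and miR-203a-3p overlapped. The family gave 577 of the 583 reads of the set, and miR-203 with miR-205 gave 6, a share of 1.03% (0.379 to 2.23).

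**Figure D1:**
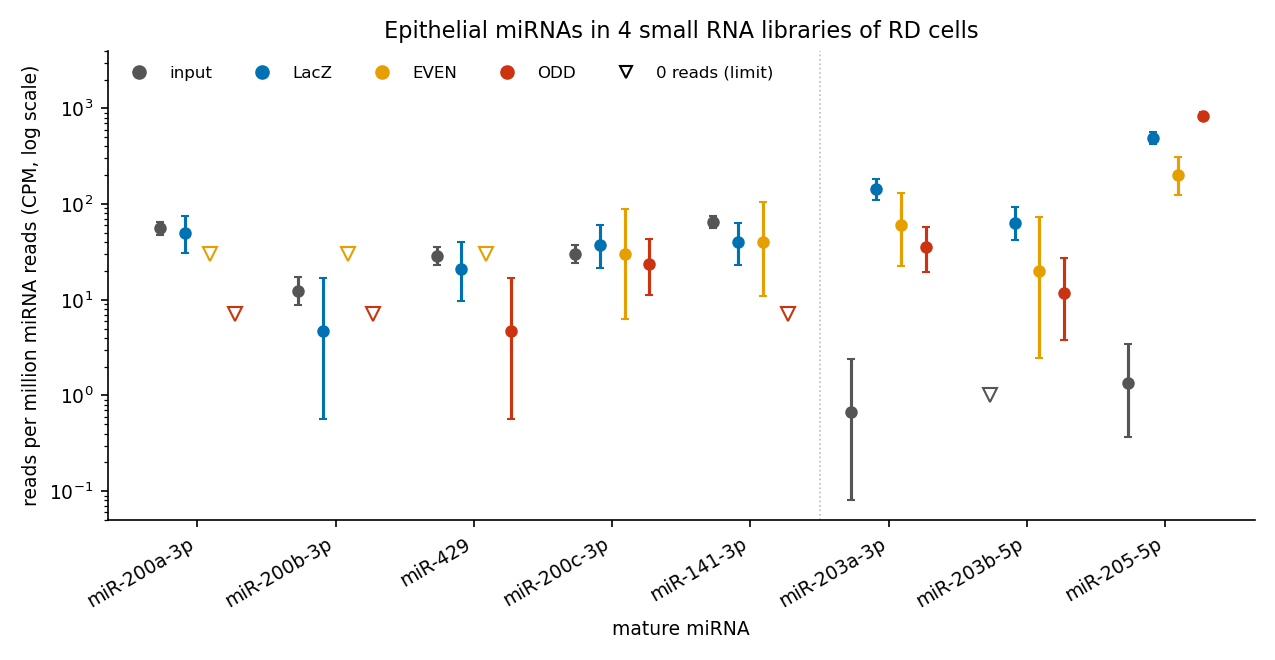
Level of each of the 8 miRNAs in the 4 libraries, in CPM on a log axis, with 95% exact counting intervals, 1 library per group, and triangles at the limit that a count of 0 allows. The 5 members of the miR-200 family lie at 12.4 to 65.6 CPM in INPUT and at 4.70 to 49.4 CPM in LACZ, whereas miR-203a-3p, miR-203b-5p and miR-205-5p are at 0 to 1.34 CPM in INPUT and at 11.7 to 832 CPM in the pull-downs.

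Every pull-down had the opposite make-up. miR-203 and miR-205 together gave 296 of 361 reads of the set in LACZ, a share of 82.0% (77.6 to 85.8). They gave 28 of 35 in EVEN, or 80.0% (63.1 to 91.6), and 375 of 387 in ODD, or 96.9% (94.6 to 98.4). The intervals of the 3 pull-down shares lie far above that of the input, and those of LACZ and EVEN overlap. miR-205-5p alone gave 57.6% of the reads of the set in LACZ, 57.1% in EVEN and 91.7% in ODD, against 0.686% in INPUT. The shift appears with the LacZ probes, which have no target in these cells by design.

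**Figure D2:**
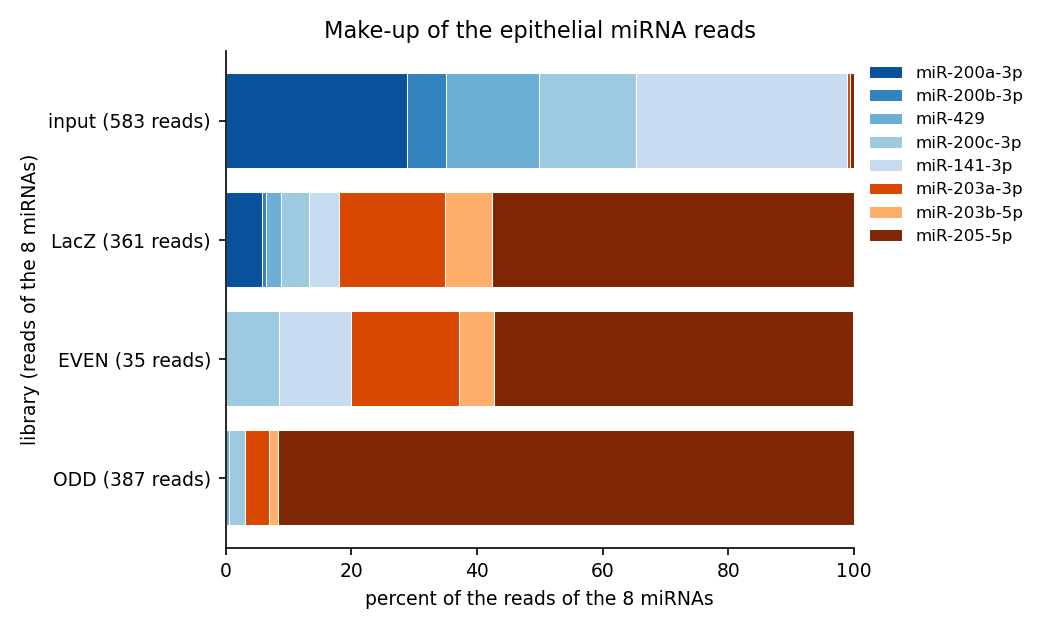
Share of each miRNA among the reads of the 8 miRNAs, in percent, for each of the 4 libraries. The miR-200 family fills the INPUT bar, and miR-205-5p with the miR-203 pair takes 80.0 to 96.9% of the 3 pull-down bars.

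The miR-200 family was found in the LacZ pull-down with all 5 members. At the family's input share LACZ would hold 82.2 family reads. It held 65, a level of 153 CPM (118 to 195) against 193 CPM (178 to 209.5) in INPUT. The summed family level was 1.26-fold lower, with an interval from 0.977 to 1.66 that includes no difference. That ratio, 0.791, moved with the scaling to 0.521 (TMM), 0.651 (median of ratios) and 0.991 (10 most abundant miRNAs left out). miR-200a-3p had 21 reads where 23.9 would match the input share, a level 1.14-fold lower (0.721 to 1.89), and its log2 ratio of -0.16 turned to 0.17 without the 10 most abundant miRNAs and to 0.08 with 5 added. miR-200c-3p had 16 reads against 12.8 (1.25-fold higher, 0.685 to 2.14), and with TMM scaling its direction turned (log2 ratio 0.36 against -0.25). miR-429 had 9 reads against 12.2 (1.36-fold lower, 0.684 to 3.08), a log2 ratio of -0.37 that turned to 0.11 with 5 added. miR-141-3p had 17 against 27.9 (1.64-fold lower, 0.999 to 2.88). miR-200b-3p had 2 reads against 5.27 and was past 2-fold lower, but its interval (2.63-fold lower, 0.679 to 22.6) includes no difference.

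A test needed at least 20 reads in either library, and a miRNA was called at a 2-fold difference of (count + 0.5) per library total. In LACZ over INPUT all 8 were tested. The 3 called higher were miR-203a-3p, miR-203b-5p and miR-205-5p, against a background of 18.1% of the 475 miRNAs tested. They passed the 20-read minimum through LACZ alone, and a miRNA this low in INPUT can enter the comparison only if it is far higher in LACZ, so nothing is read from their count. The 1 called lower was miR-200b-3p, against a background of 34.3%. The median log2 ratio over all tested miRNAs was -0.44, and the 5 family members lay at -1.09 to 0.36. A median over the 8 would include the 3 that entered through LACZ alone, so none is compared. The split of the background moved with the scaling, from 86 higher and 163 lower to 63 and 246 with TMM factors and to 108 and 127 with totals that leave out the 10 most abundant miRNAs.

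The stratified-epithelium miRNAs had large folds in that comparison. miR-203b-5p had 27 reads in LACZ and 0 in INPUT, 63.2-fold higher at the floor, with an exact interval from 48.0 upward. miR-205-5p had 208 reads against 4, 365-fold higher (141 to 1353). miR-203a-3p had 61 reads against 2, 214-fold higher (56.8 to 1809). These folds rest on 0 to 4 input reads, with wide intervals, and they set no order among the 3. With 5 added to each count the log2 ratios were 7.38 for miR-205-5p, 6.05 for miR-203a-3p and 5.49 for miR-203b-5p.

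**Figure D3:**
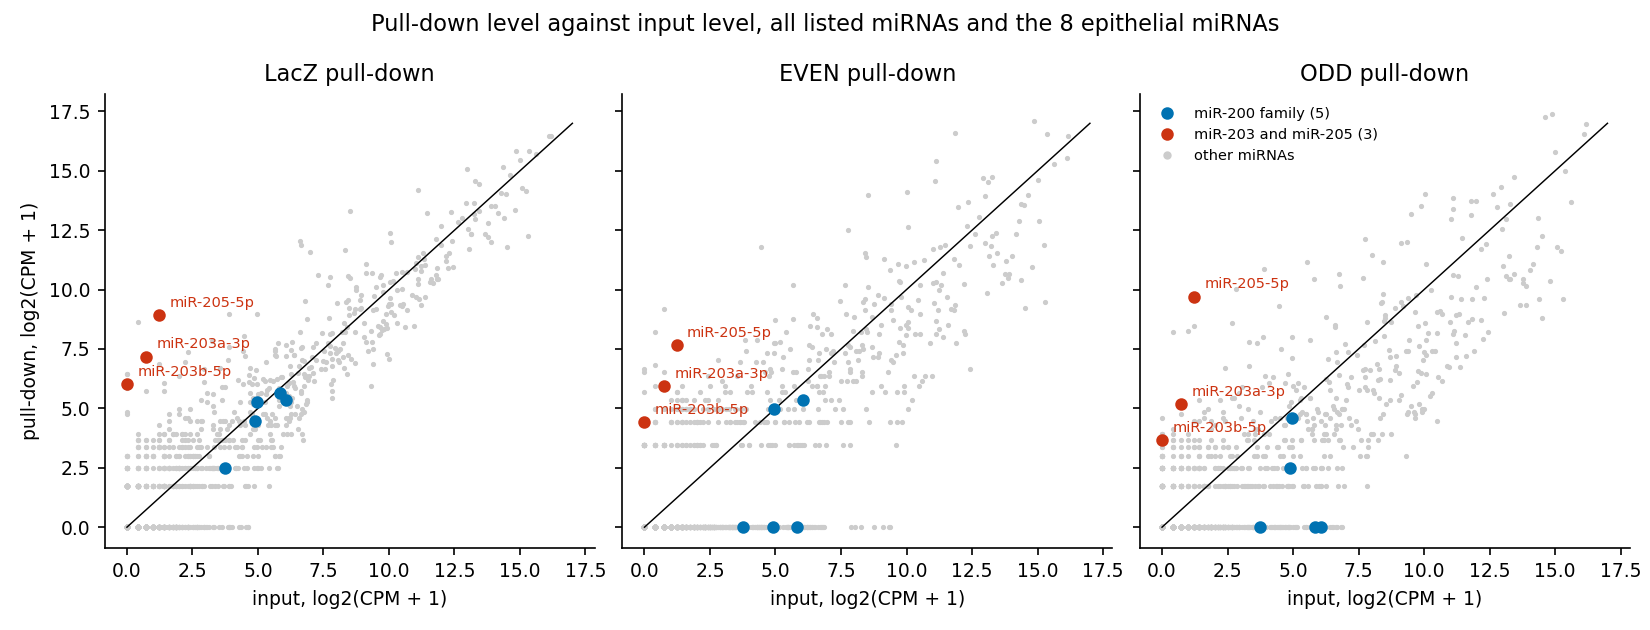
Level in each pull-down against the level in INPUT, both as log2(CPM + 1), for all listed miRNAs (grey), the miR-200 family (blue) and miR-203 and miR-205 (red); the line marks equal levels. miR-205-5p lies above the line in each pull-down (202 to 832 CPM against 1.34), and the miR-200 family lies near the line with LACZ and near or below it with EVEN and ODD.

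In the EVEN pull-down only 7 reads of the miR-200 family were found, 4 of miR-141-3p and 3 of miR-200c-3p, where 19.1 would match the input share. The family sum was 2.73-fold lower (1.32 to 6.82), at 70.7 CPM (28.4 to 146). miR-200a-3p had 0 reads where 5.56 would match the input share, 1.85-fold lower at the floor. miR-200b-3p and miR-429 also had 0 reads, but only 1.23 and 2.85 would match their input shares, so a difference was not detectable for them at this depth. miR-200c-3p was level with the input, at 30.3 CPM against 30.1 (1.01-fold, 0.204 to 3.04). miR-141-3p was 1.62-fold lower (0.624 to 6.02), and it was slightly higher than the input with totals that leave out the 10 most abundant miRNAs (log2 ratio -0.53 against 0.21).

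miR-205-5p had 20 reads in EVEN, the minimum for a test, and was 151-fold higher than in INPUT (50.6 to 607). miR-203a-3p had 6 reads against 2 (90.6-fold higher, 16.2 to 918) and miR-203b-5p had 2 against 0; both fell short of the minimum and were not tested. Of the 6 members tested in EVEN over INPUT, 1 was called higher, against a background of 18.3%, and 3 lower, against 52.2%. Each called member passed the minimum only through the library where it was higher, and INPUT is 30.2 times as deep as EVEN, so nothing is read from these counts. The median log2 ratio over all 464 miRNAs tested was -1.06. The 3 lower calls were miR-200a-3p, miR-200b-3p and miR-429, all at 0 reads, and for the last 2 the call rests on the 0.5 added to each count. Leaving out the 10 most abundant miRNAs from the totals changed the background from 85 higher and 242 lower to 123 and 176.

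The ODD pull-down, as deep as LACZ, separated the family members more clearly. miR-141-3p had 0 reads where 28.0 would match the input share, 9.32-fold lower at the floor (exact interval of the ratio up to 0.133). miR-200a-3p had 0 reads where 24.0 would match, 7.99-fold lower at the floor (ratio up to 0.156). Over all miRNAs tested in this comparison the median log2 ratio was -2.19. That median has 0.5 added to each count, as have the log2 ratios of miR-141-3p (-5.81) and miR-200a-3p (-5.59). With 5 added the pair was at -2.52 and -2.30. No median was taken with 5 added, so these values are not set against -2.19. miR-429 had 2 reads against 12.3 (6.14-fold lower, 1.65 to 51.5). Its log2 ratio of -2.30, with 0.5 added, is close to the median of -2.19. miR-200b-3p had 0 reads where 5.28 would match, 1.76-fold lower at the floor.

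miR-200c-3p was the exception in ODD. It had 10 reads where 12.8 would match the input share, at 23.4 CPM (11.2 to 43.1), a 1.28-fold lower level whose interval (0.667 to 2.77) includes no difference. Its log2 ratio of -0.30 ranked 115 of 468, and it turned positive under each other scaling, at 0.39 (TMM), 0.87 (median of ratios) and 0.72 (10 most abundant miRNAs left out). Across the 4 libraries miR-200c-3p was at 30.1, 37.6, 30.3 and 23.4 CPM in INPUT, LACZ, EVEN and ODD, and all 4 intervals overlapped.

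miR-205-5p reached its highest level in ODD, 832 CPM (748 to 924; 355 reads), 622-fold above INPUT (241 to 2295). Its rank by level was 704 of 1146 detected miRNAs in INPUT, where it rests on 4 reads. In the pull-downs it ranked 127 of 745 in LACZ, 139 of 439 in EVEN and 64 of 592 in ODD. miR-203a-3p had 15 reads (52.5-fold higher, 12.2 to 474). miR-203b-5p had 5 reads against 0 (11.7-fold higher at the floor, exact interval from 6.42 upward). Both were under the minimum for a test. Of the 6 members tested in ODD over INPUT, 1 was called higher, against a background of 13.0%, and 4 lower, against 68.6%, and these too passed the minimum only through the library where they were higher. With median-of-ratios size factors the background was 108 higher and 237 lower, in place of 61 and 321. The 3 comparisons with INPUT share that library, so the members' values in them are not independent.

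The sum over the 8 miRNAs hides these opposite movements. It stood at 195 CPM (179.6 to 212) in INPUT, 849 (763 to 941) in LACZ, 354 (246 to 492) in EVEN and 907 (819 to 1003) in ODD. Relative to INPUT it was 4.35-fold higher in LACZ (3.80 to 4.97), 1.81-fold higher in EVEN (1.25 to 2.55) and 4.65-fold higher in ODD (4.08 to 5.30). Without miR-205-5p the ratio to INPUT was 1.86 in LACZ, 0.782 in EVEN and 0.387 in ODD. The sums of the HIPK3 pull-downs thus stood above INPUT only with this 1 miRNA included. No interval was computed for the ratios without it, so whether 0.782 in EVEN differs from 1 is not known. The family sum alone was 6.86-fold lower in ODD (3.90 to 13.4). As a ratio to INPUT it was 0.146, and 0.234 with TMM, 0.327 with median-of-ratios scaling and 0.296 without the 10 most abundant miRNAs. The sum of miR-203 and miR-205 was 347-fold higher in LACZ (157 to 952), 141-fold in EVEN (57.2 to 416) and 438-fold in ODD (199 to 1201). The scaling moved these to between 228 and 434 in LACZ, 112 and 236 in EVEN, and 705 and 983 in ODD.

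The design sets the HIPK3 probes against the LacZ control. With EVEN, of 4 members tested, 0 were called higher than LACZ, against a background of 9.69%, and 4 lower, against 51.2%. Of these 4, 3 passed the 20-read minimum through LACZ alone, and miR-205-5p just reached it in EVEN, so the minimum favoured lower calls and nothing is read from the count. miR-205-5p was 2.42-fold lower (1.53 to 4.04; 202 against 489 CPM), miR-203a-3p 2.36-fold lower (1.03 to 6.69) and miR-203b-5p 3.14-fold lower (0.789 to 27.2). Their log2 ratios of -1.24, -1.14 and -1.36 sit close to the median of -1.06 over all 289 miRNAs tested. With median-of-ratios size factors all 3 were within 2-fold (-0.84, -0.73 and -0.95), and the background went from 28 higher and 148 lower to 43 and 107. miR-200a-3p, with 21 reads in LACZ and 0 in EVEN, was 1.63-fold lower at the floor. miR-200c-3p (1.24-fold lower, 0.355 to 6.64) and miR-141-3p (1.01-fold higher, 0.248 to 3.10) were too low to be tested.

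With ODD, miR-205-5p parted from the miR-203 members. It was 1.70-fold above LACZ (1.43 to 2.03; 832 against 489 CPM), under the 2-fold threshold, at a log2 ratio of 0.77 that ranked 42 of 300 where the median over all tested miRNAs was -1.79. It passed the threshold with TMM scaling (2.05), median-of-ratios scaling (2.21) and totals without the 10 most abundant miRNAs (1.46). miR-203a-3p was 4.08-fold lower than LACZ (2.29 to 7.72; 35.2 against 143 CPM) and miR-203b-5p 5.41-fold lower (2.05 to 18.0; 11.7 against 63.5 CPM), at log2 ratios of -1.99 and -2.33, again near the median. With median-of-ratios size factors they were at -0.54 and -0.88.

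In the family, miR-200a-3p was 7.02-fold lower in ODD than in LACZ at the floor (0 against 21 reads, exact interval of the ratio up to 0.192). miR-141-3p, with 0 against 17 reads, was 5.68-fold lower at the floor but missed the minimum for a test. So did miR-200c-3p (1.60-fold lower, 0.684 to 3.95) and miR-429 (4.51-fold lower, 0.934 to 42.9). Of the 4 members tested in ODD over LACZ, 0 were called higher, against a background of 13.0%, and 3 lower, against 70.3%. The 3 lower members passed the minimum through LACZ alone. With TMM factors 1 was higher, and the background changed from 39 higher and 211 lower to 66 and 103. The comparisons with LACZ share that library.

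**Figure D4:**
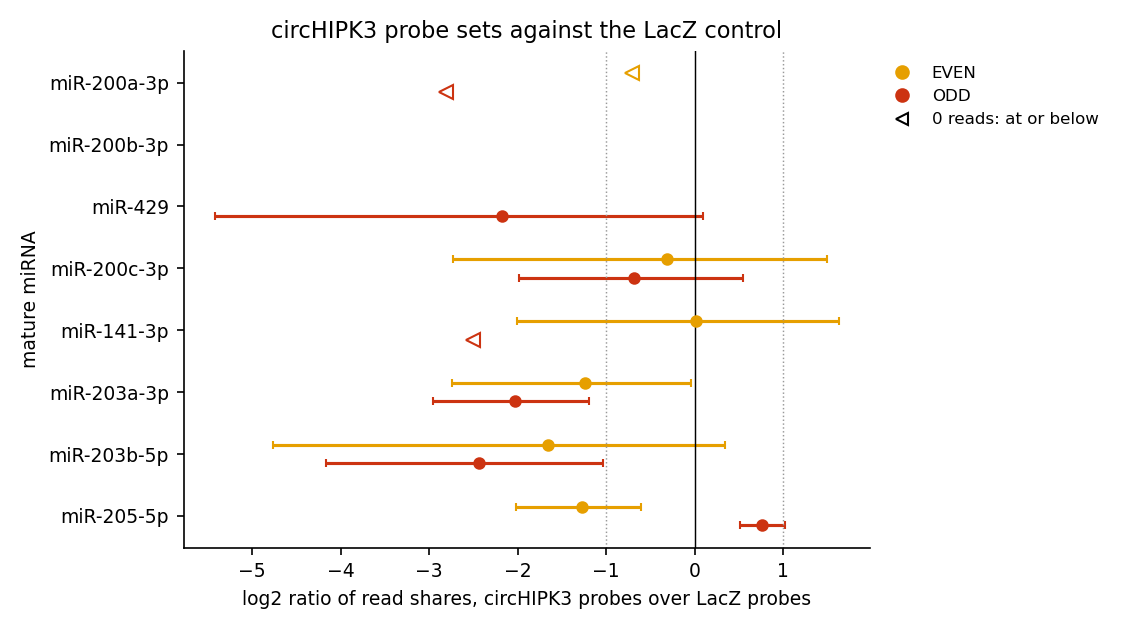
Log2 ratio of the read share of each of the 8 miRNAs in EVEN and in ODD over LACZ, with 95% exact counting intervals and dotted lines at 2-fold. Triangles mark folds at the floor, where a count is 0, and there is no mark where no fold could be given. miR-205-5p is the member above 0 in ODD (1.70-fold) and it is below 0 in EVEN (2.42-fold lower), whereas both miR-203 members are below 0 with both probe sets.

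Between the probe sets, miR-205-5p was the sole member with enough reads for a test. It was 4.12-fold lower in EVEN than in ODD (2.63 to 6.83), with 20 reads against 355, where the median log2 ratio over all 203 tested miRNAs was 0.64. Of the 1 member tested, 0 were called higher, against a background of 37.9%, and 1 lower, against 18.2%. The balance of that background turned with the scaling, from 77 higher and 37 lower to 20 higher and 64 lower with TMM factors. miR-203a-3p did not differ beyond counting error (1.72-fold higher in EVEN, 0.548 to 4.70), nor did miR-203b-5p (1.72-fold, 0.164 to 10.5) or miR-200c-3p (1.29-fold, 0.229 to 5.02). miR-141-3p had 4 reads in EVEN and 0 in ODD, 5.75-fold higher in EVEN at the floor. Its exact interval starts at 2.84, and it was not tested.

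Ratios between members of a library do not depend on how the library is scaled. miR-203a-3p gave 69.3% (58.6 to 78.7) of the reads of the miR-203 pair in LACZ, 75.0% (34.9 to 96.8) in EVEN and 75.0% (50.9 to 91.3) in ODD, so a difference within the pair was not detectable. The ratio of miR-205-5p to miR-203a-3p was 3.41 in LACZ and 3.33 in EVEN, and 23.7 in ODD. As a share of the reads of both, miR-205-5p held 77.3% in LACZ (71.8 to 82.2), 76.9% in EVEN (56.4 to 91.0) and 95.9% in ODD (93.4 to 97.7). The ODD interval lies above those of LACZ and EVEN. In INPUT the share was 66.7% on 6 reads (22.3 to 95.7), which overlaps each of these intervals. Both splits were chosen with the counts known.

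Within the miR-200 family, the pair that shares a seed, miR-200a-3p and miR-141-3p, gave 63.1% of family reads in INPUT (59.0 to 67.0), 58.5% in LACZ (45.6 to 70.6) and 57.1% in EVEN (18.4 to 90.1). In ODD it gave 0 of 12, with an exact interval of 0 to 26.5%, below the intervals of INPUT and LACZ. Of those 12 reads 10 were of miR-200c-3p and 2 of miR-429, while miR-200b-3p had 0, so miR-200c-3p alone carries this difference and it does not set the seed groups apart. The change also ran through the MIR200CHG pair: miR-200c-3p gave 31.5% of its reads in INPUT (26.1 to 37.2), 48.5% in LACZ (30.8 to 66.5), 42.9% in EVEN (9.90 to 81.6) and 10 of 10 in ODD (69.2 or more). By cluster, the chromosome 12 pair gave 49.6% of family reads in INPUT, 50.8% in LACZ, 7 of 7 in EVEN and 83.3% in ODD. These splits were chosen with the counts known, and those of EVEN and ODD rest on 7 and 12 reads.

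The opposite arms of the hairpins were nearly absent. The table lists 7 of them (miR-200a-5p, miR-200b-5p, miR-200c-5p, miR-141-5p, miR-203a-5p, miR-203b-3p and miR-205-3p), and together they had 7 reads in INPUT, 2 in LACZ, 0 in EVEN and 2 in ODD. No arm had more than 2 reads in a library, so none was tested. miR-205-3p and miR-203a-5p had 0 reads in all 4 libraries, also where miR-205-5p had 355 reads and miR-203a-3p had 61. Among listed miRNAs with a RefSeq sequence outside the set, miR-6718-5p alone shares a seed with a member, miR-203b-5p. It had 0 reads in each library.

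A list of 8 other epithelial miRNAs, chosen with results of these data known, had no member called in LACZ over INPUT. Its summed level was 2526 CPM in INPUT, 2539 in LACZ, 3487 in EVEN and 1923 in ODD, most of it from miR-224-5p (2085, 2219, 3345 and 830.1 CPM). Of 4 tested in LACZ over INPUT, 0 were higher and 0 lower, against 18.1% and 34.3% of all miRNAs tested. Of 4 in EVEN over INPUT, 0 were higher and 3 lower, against 18.3% and 52.2%. Of 5 in ODD over INPUT, 1 was higher and 3 lower, against 13.0% and 68.6%. The one higher was miR-184, abundant in the cornea, with 18 reads in INPUT, 17 in LACZ, 3 in EVEN and 445 in ODD, 173-fold above INPUT in ODD (108 to 295). In LACZ it was 6.63-fold above INPUT (3.21 to 13.6) but short of the minimum for a test. The intestinal and hepatic pair miR-192-5p (249, 159.9, 70.7 and 14.1 CPM) and miR-194-5p (169, 101, 40.4 and 21.1 CPM) was highest in INPUT. miR-31-5p, another miRNA of stratified epithelium, had 4 reads in INPUT and 0 in every pull-down. Only 0.569, 0.132 and 0.571 reads would match its input share in LACZ, EVEN and ODD, so a decrease was not detectable.

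Marker lists of other cells moved in several directions, and their part in the members' levels was not tested. Blood cell miRNAs summed to 40.8, 65.8, 212 and 61.0 CPM in INPUT, LACZ, EVEN and ODD, with the erythroid miR-451a at 0 in all 4. The liver miRNA miR-122-5p was at 3.68, 14.1, 0 and 0 CPM. Mesenchymal miRNAs summed to 13739.6, 6366, 1698 and 10011 CPM. The ODD sum was mostly miR-214-3p, at 9349 CPM against 725 in INPUT. From INPUT to ODD miR-199a-5p fell from 12938 to 649.5 CPM and miR-143-3p from 71.6 to 11.7. miR-145-5p was at 5.36 CPM in INPUT and had 0 reads in ODD. Only 2.28 reads would match its input share there, so a decrease was not detectable. miR-199a-3p and miR-199b-3p were listed at 0 throughout, beside 38657 INPUT reads of miR-199a-5p, and the cause was not tested. The endothelial pair summed to 14283, 11539.9, 3992 and 1834 CPM and the neural list to 10915, 8359, 2122 and 1402 CPM. Muscle miRNAs remained the most abundant list everywhere, at 34970.1 to 103779.7 CPM.

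High pull-down reads with almost no input reads were rare among all miRNAs. With at most 4 reads in INPUT, a limit set after the members' values were seen, 9 of the 284 miRNAs with at least 20 reads in LACZ qualified, and 3 of those 9 were miR-203a-3p, miR-203b-5p and miR-205-5p. In EVEN 3 of 143 qualified and in ODD 4 of 195, with miR-205-5p as the one member in each. Of the 135 miRNAs with at least 20 reads in all 3 pull-downs, miR-205-5p alone had at most 4 reads in INPUT. The limit of 4 is the INPUT count of miR-205-5p itself, and its 20 reads in EVEN equal the minimum. Nothing is therefore read from its being the only one.

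The profiles most like each member were found among 483 miRNAs by the Euclidean distance of log2(CPM + 1) over the 4 libraries, each centred on its own mean. The nearest to miR-205-5p was miR-1247-5p, at a distance of 2.28, with 41, 213, 17 and 796 reads in INPUT, LACZ, EVEN and ODD, followed by miR-3177-3p (3.39) and miR-760 (3.64). Both miR-203 members had miR-1306-5p, miR-1343-3p and miR-6724-5p as their nearest 3, at 1.29 to 2.01, and were nearer to each other (0.65) than to any of these. miR-200c-3p was nearest to miR-181b-5p (0.21), miR-125b-1-3p (0.34) and miR-149-5p (0.51), of which miR-149-5p had 2480, 657, 130 and 371 reads. miR-200c-3p and miR-141-3p, from one host gene, were 4.51 apart.

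The other family members had near neighbours among miRNAs that were likewise at or near 0 in the HIPK3 pull-downs. miR-200a-3p was nearest to miR-19b-1-5p (0.46), miR-582-3p (0.58) and miR-628-5p (0.85), all with 0 reads in EVEN and ODD. miR-429 was nearest to miR-1251-5p (0.14), miR-182-3p (0.49) and miR-5688 (0.57), and miR-200b-3p to miR-556-3p (0.03), miR-20a-3p (0.21) and miR-1179 (0.24). miR-141-3p was nearest to miR-641 (1.15), miR-16-2-3p (1.37) and miR-329-3p (1.60). Distances of miRNAs at 0 reads also depend on library depth, and a small distance there describes counts of 0 in the same libraries.

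Exon 2 of HIPK3, which both probe sets target, was searched for the members' seed matches. It spans chr11:33286413-33287511 on the plus strand of GRCh38, 1099 bases of which 1097 are coding, and it was read as a circle so that matches across the junction counted. The sites searched on the sense strand were CAGTGTT for miR-200a-3p and miR-141-3p, CAGTATT for miR-200b-3p, miR-200c-3p and miR-429, CATTTCA for miR-203a-3p, GACCACT for miR-203b-5p and ATGAAGG for miR-205-5p. None of these 7-base sites occurs in the exon. Of the 2367 listed miRNAs with a RefSeq sequence, 175 (7.39%) have such a site there. In the first 1099 bases of 15649 protein-coding transcripts, the sites were found in 7.87%, 5.58%, 7.25%, 5.86% and 12.6%, in the order given. Those stretches were read as lines and can include bases before the start codon, unlike the mostly coding exon read as a circle. Matched over 6 bases, 1 member has a site, miR-203b-5p at chr11:33286940-33286945, shown in capitals in its coding context:
HIPK3 exon 2: aaacagaattgtACCACTggagaaggtgac
For 6 bases, 596 miRNAs (25.2%) have a match. A missing match says only that these letters are not in the exon.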

How the data were processed

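Small RNA was measured in 4 libraries of RD cells. RNA was recovered by phenol/chloroform extraction, and single-end libraries came from a QIAseq miRNA kit, per the labels' protocols. The deposited table by the authors gives a raw count for each mature miRNA beside its CPM, which is that count scaled to the library total. The submitters' processing notes name GRCh38. The sources used here do not give the aligner or the use of molecular identifiers, of strand and of reads that match several miRNAs. Without collapsed molecular identifiers the counting intervals would be too narrow.

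The members and lists were chosen with earlier results of these data known. Each library was its own group. Log2 ratios were computed from (count + 0.5) per library total for miRNAs with at least 20 reads in either library, and called at 2-fold. Folds are ratios of shares with 95% exact conditional (Clopper-Pearson) intervals. A 0 was replaced by a floor of 3 counts to give a fold at the floor, which leaves out the counting error of the other count. No fold was given where both libraries had at most 3 reads or where the fold at the floor fell under 1. All 2656 miRNAs entered each of the 6 comparisons. The ratio and interval steps were tested on simulated data.

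The miRNAs named are the 8 members, the other arms of their hairpins, the other epithelial miRNAs that were most abundant in INPUT or had the largest LACZ to INPUT ratio, and the 3 profiles nearest each member. miR-31-5p and the ODD values of miR-184 were chosen after their values were seen. Marker lists for skeletal muscle, mesenchymal, blood, endothelial, liver and neural cells were summed. The alternatives tried were scaling by TMM (edgeR 4.0.16), by DESeq2's median of ratios (version 1.42.0) and by totals that leave out the 10 most abundant miRNAs, a minimum of 1 or of 100 reads, an added count of 5, a 4-fold threshold, a requirement that the interval exclude 1, sums without the most abundant member and a 6-base seed match. The scaling alternatives for the family sums were added after seeing the data. Exon 2 was to be read from a genome; it was read instead from a HIPK3 transcript of GENCODE on the same build. Python 3.11.15 with scipy 1.17.1 was used.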

Additional observations from a re-analysis of the deposited data

How the results depend on the processing

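With 1 library per group, no replicate could be left out. No paired analysis was possible because no result comes from a test across replicates. EVEN, with 98950 reads, limits the values most. The miR-203 and miR-205 excess over INPUT kept its direction under every scaling and added constant tried, for the members tested. In EVEN and ODD that was miR-205-5p alone. These members passed the minimum through the pull-down only, and their folds are far larger than the shifts from scaling. Nothing is therefore read from the kept direction. Scaling moved the median over all miRNAs tested by more than 0.1 on the log2 scale, in ODD over LACZ from -1.79 to -0.50 (TMM) and -0.35 (median-of-ratios), and in EVEN over ODD from 0.64 to -0.38 and -0.40. With TMM factors, members lower in LACZ than INPUT were 2 in place of 1, members lower in EVEN than LACZ 2 in place of 4, and members higher in ODD than LACZ 1 in place of 0. The ratio of the summed 8 became 2.87 (LACZ over INPUT), 7.48 (ODD over INPUT), 2.61 (ODD over LACZ) and 0.192 (EVEN over ODD). With median-of-ratios size factors, members lower in EVEN than LACZ were 1, higher in ODD than LACZ 1 and lower in ODD than LACZ 1 in place of 3, with sums at 3.58, 10.4, 2.92 and 0.189 in the same order. Without the 10 most abundant miRNAs, members lower in LACZ than INPUT were 0, lower in EVEN than LACZ 1 and higher in ODD than LACZ 1, with sums at 5.45 (LACZ over INPUT), 3.04 (EVEN over INPUT), 9.45 (ODD over INPUT) and 1.73 (ODD over LACZ). A minimum of 1 read gave 3 members higher in EVEN than INPUT, 3 higher in ODD than INPUT, 6 lower in ODD than LACZ and 1 higher in EVEN than ODD, since more members were tested. A minimum of 100 reads, with fewer members tested, gave 1 higher and 0 lower in LACZ than INPUT, 0 higher and 1 lower in EVEN than INPUT, 2 lower in ODD than INPUT, 1 lower in EVEN than LACZ and 0 lower in ODD than LACZ. Adding 5 to each count gave 0 lower in LACZ than INPUT, 3 higher and 0 lower in EVEN than INPUT, 2 lower in ODD than INPUT and 0 lower in EVEN than LACZ. It turned the log2 ratio of hsa-miR-200b-3p to 0.23 in LACZ over INPUT and to 1.85 in EVEN over INPUT, and that of hsa-miR-429 to 0.73 in EVEN over INPUT, since 5 reads weigh more in the shallower library. A 4-fold threshold left 0 lower in LACZ than INPUT and 1 lower in EVEN than LACZ, and an interval that excludes 1 left 0 lower in LACZ and 1 lower in EVEN than INPUT. Without miR-205-5p the summed ratio was 1.86 for LACZ over INPUT and 0.209 for ODD over LACZ. It crossed 1, to 0.782 for EVEN and 0.387 for ODD over INPUT, and to 2.02 for EVEN over ODD. No interval was computed for these ratios. A 6-base seed match gave 1 member with a site in exon 2, in place of 0. Where not stated, the cause was not tested.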
